A study of Mus musculus with 12 samples.

Results

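The SOCS family comprises Cish and Socs1 to Socs7, the 8 genes for cytokine-inducible SH2 proteins that damp signalling from cytokine and growth factor receptors. All probe sets listed with 1 of these genes alone were taken, which gave 24 of the 34945 probe sets named with a single gene, and the 8 genes stand among 18194 tested. Transcripts were measured on 12 Affymetrix arrays of embryonic fibroblasts (MEFs) of C57BL/6 mice, cultured cells of connective tissue. The 6 groups of 2 biological duplicates were wild-type cells (WT), Stat5-null cells (KO) and Stat5-null cells into which STAT5A had been brought by a retroviral vector (S5), each left without stimulation or given growth hormone for 120 minutes. Every KO and S5 group lacks the endogenous Stat5 genes. The labels name no empty-vector group and no vehicle, effects of genotype and of cell preparation cannot be separated, and p-values measure only the spread between duplicates. The question of the series is which responses to growth hormone need STAT5, the transcription factor pair that the receptor's kinase JAK2 activates.

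SOCS proteins are the negative feedback arm of JAK-STAT signalling. A cytokine activates JAK kinases, STAT dimers enter the nucleus and switch on SOCS genes, and the proteins made then return to the receptor complex. Their SH2 domain binds phosphorylated tyrosines, and their C-terminal SOCS box joins elongins and a cullin into a ubiquitin ligase that marks bound proteins for degradation. Growth hormone signalling in particular is held in check by SOCS2, whose loss makes mice grow large, and Cish is a classical target gene of STAT5.

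STAT5 dimers bind a palindromic element with the core TTCNNNGAA, so the stretches that hold it near the starts of the members are shown before the values. RefSeq promoter windows (GRCm38.p6, 250 bases before to 50 bases after an annotated start) were at hand for 4 members, Cish, Socs1, Socs3 and Socs4, and those of Socs2, Socs5, Socs6 and Socs7 were not used here. The motif reads the same on both strands, and it occurred in 8.3 percent of all 32851 windows and at least 2 times in 0.457 percent. The Cish window held 2 matches that do not overlap, at positions 1 to 9 and 12 to 20 counted from the annotated start. The Socs3 window held 1, at positions -154 to -146. None lay in the windows of Socs1 and Socs4, which says only that these letters are not there. The stretches below run 5′ to 3′ on the gene's strand, with the matches in capitals.
Cish, chr9:107296654-107296683, plus strand: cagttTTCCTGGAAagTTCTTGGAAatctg
Socs3, chr11:117969501-117969530, minus strand: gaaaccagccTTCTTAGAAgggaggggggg
The matches are descriptions of the sequence, and binding was not measured on these arrays.

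Values are the deposited log2 expression values, so a difference of 1 is a doubling. Below a level of 4 the values pile up at a low mode in which differences are compressed, and levels there are not read as expression. Of the 24 probe sets, 13 lay above that bound on every array, 6 lay below it on every array, and 5 crossed it. On its brightest probe set the deleted gene Stat5a had a mean of 11.48 in untreated WT cells and 2.44 at most in any KO or S5 group. Another Stat5a probe set had a mean of 9.88 in untreated and 9.09 in treated S5 cells and 2.24 in untreated WT cells. Deleted Stat5b had 9.01 in untreated WT cells and 1.98 at most in any KO or S5 group. The Ghr transcript for the hormone's receptor lay between 13.93 and 14.10 in all groups. Median values per array ran from 2.86 to 3.02, duplicates correlated across 10947 genes with r from 0.990 to 0.996 (genes are not independent replicates), and precision is limited by having 2 arrays in a group. Of 11 fibroblast markers measured, all lay above the bound on both untreated arrays in WT, 10 in KO and 9 in S5 cells. Col1a1, Col1a2, Col3a1, Vim and Fn1 had means of 14.34 or above in every group. Untreated S5 arrays read 3.53 and 5.09 for the surface marker Thy1 (14.17 and 14.26 in WT). Lum lay below the bound in KO and read 3.61 and 4.18 on untreated S5 arrays. In untreated WT and S5 cells the means were 10.86 and 7.95 for Dcn and 12.68 and 11.53 for Pdgfra. The control probe sets for Gapdh differed between their 3′ and 5′ ends by 1.44 to 1.62 on S5 arrays and 0.89 to 1.22 on the others. The same difference for Actb was 3.04 to 3.15 on S5 arrays and 2.55 to 3.13 on the others. The part of either in the results on S5 was not tested.

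**Figure D1:**
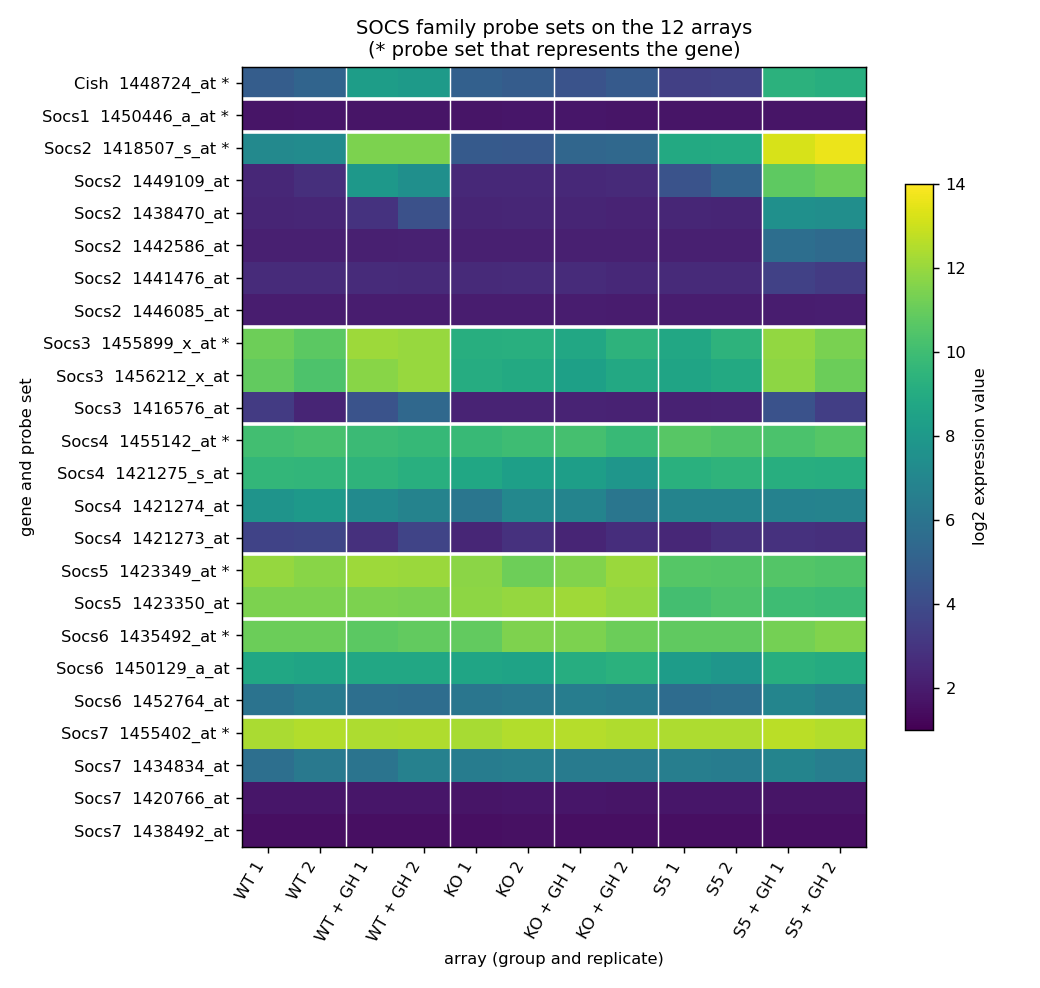
Log2 expression value of each of the 24 SOCS probe sets (rows, grouped by gene, with a star on the brightest one) on each of the 12 arrays (columns). Cish, Socs2 and Socs3 are brighter on the treated WT and S5 arrays, while the single Socs1 probe set stays between 1.73 and 1.80 on all arrays.

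Growth hormone raised 2 of the 8 members in WT cells, Cish and Socs2, and 3 in S5 cells, Cish, Socs2 and Socs3. In KO cells none passed. These counts refer to the brightest probe set of each gene and to an adjusted p below 0.05 in limma's moderated test, two-sided and adjusted by the Benjamini-Hochberg method over all genes. The share of all genes that passed was 6.00 percent in WT, 7.88 percent in S5 and 0.308 percent in KO, against 2, 3 and 0 of 8 members. At an unadjusted p below 0.05 the KO count was 1, that of Socs2. The median log2 response of the members was 0.14 in WT, 0.38 in S5 and 0.11 in KO, where the medians of all genes were -0.04, -0.02 and -0.02. In WT and S5 cells the family median thus lay far below the responses of Cish and Socs2.

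Socs2, the member that limits growth hormone signalling, read 7.14 and 7.28 in WT cells without and 11.44 and 11.42 with the hormone. In S5 cells it read 8.88 and 8.96 without and 13.22 and 13.64 with the hormone. In KO cells the values were 4.69 and 4.64 without and 5.28 and 5.40 with it. The 6 groups therefore stood in the order S5 with hormone, WT with hormone, S5, WT, KO with hormone and KO, and no array of a group overlapped with an array of the next. The rise was 18.7-fold in WT (log2 change 4.22, SE 0.13, adjusted p = 2.7e-06) and 22.8-fold in S5 (4.51, SE 0.13, adjusted p = 4.29e-06). The S5 and WT responses differed by 0.29 (95% interval -0.13 to 0.71, adjusted p = 0.633). The KO change of 0.67 (95% interval 0.38 to 0.97, unadjusted p = 0.00093) did not pass after adjustment over all genes (adjusted p = 0.104). It passed without replicate 1 or replicate 2 of treated S5 (adjusted p = 0.0354), which leaves the KO values themselves as they are. Averaged over its 6 probe sets, several in the low mode, Socs2 still passed in WT and S5 cells, with smaller changes of 1.75 and 3.36, and the S5 response then exceeded that of WT by 1.61 (adjusted p = 0.000174).

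Cish, the founding member, went from 4.84 and 5.17 to 8.22 and 8.07 in WT cells, a rise of 8.8-fold (SE of the log2 change 0.16, adjusted p = 6.46e-05). In S5 cells it went from 3.45 and 3.55 to 9.33 and 9.17. Both untreated S5 arrays lie in the low mode, so the rise is given with that level set to 4, as at least 38.1-fold (adjusted p = 4.29e-06). The KO arrays read 4.99 and 4.76 without and 4.32 and 4.69 with the hormone, a change of -0.37 (95% interval -0.74 to 0.00, adjusted p = 0.515). Treated S5 cells thus stood highest and untreated S5 cells lowest, and only the neighbours WT and KO, both untreated, overlapped in the order of the 6 groups.

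**Figure D2:**
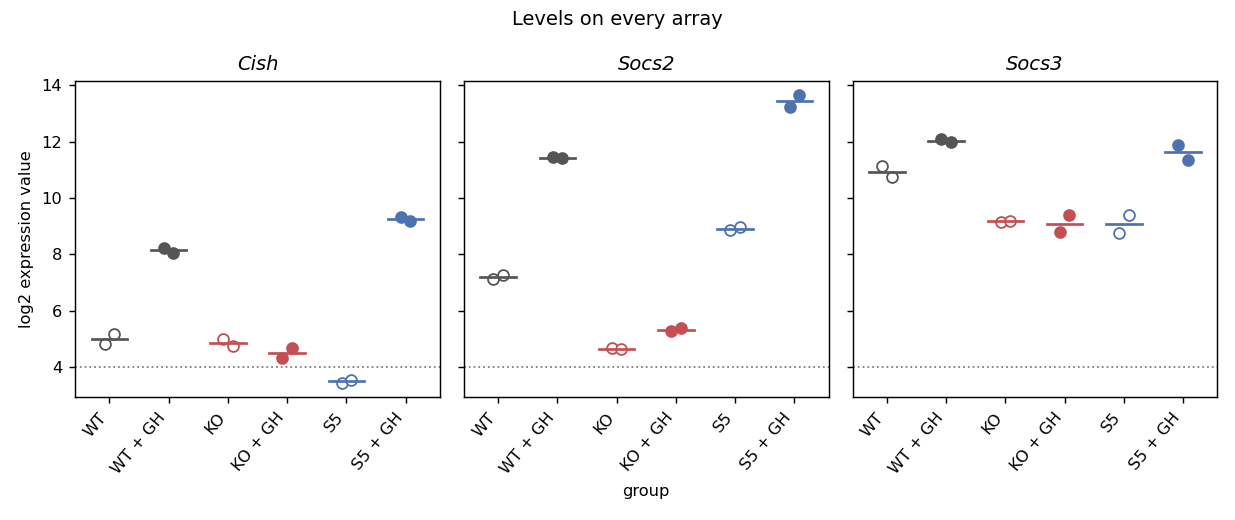
Log2 expression value of Cish, Socs2 and Socs3 (1 panel each, brightest probe set) in the 6 groups; open points are untreated arrays, filled points arrays with growth hormone, bars the mean of 2 arrays, and the dotted line the bound of the low mode at 4. Cish and Socs2 step up in WT and S5 cells, and in KO cells Cish stays between 4.32 and 4.99 and Socs2 between 4.64 and 5.40.

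The responses of Cish and Socs2 were larger in cells with STAT5 than in cells without it, as a direct test of the difference between responses showed. For Socs2 the WT response exceeded the KO response by 3.55 (SE 0.18, adjusted p = 0.000104) and the S5 response exceeded it by 3.84 (SE 0.18, adjusted p = 0.000162). For Cish the same differences were 3.51 (SE 0.22, adjusted p = 0.000443) and 6.11 (SE 0.22, adjusted p = 4.53e-05), the latter 5.62 with the low level set to 4. Both comparisons use the same KO arrays. Of the 8 members 2 passed for WT minus KO and 3 for S5 minus KO, where 1.27 and 1.13 percent of all genes did. Cish alone passed for S5 minus WT, by 2.61 (2.11 with the low level set to 4, adjusted p = 0.00143), where 2.92 percent of all genes did.

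Socs2 had 6 probe sets, of which 1 lay above the low mode on all arrays, 3 on some and 2 on none. The brightest, 1418507_s_at, gave the values above. The next, 1449109_at, read 2.46 and 2.73 in untreated WT and 7.95 and 7.47 in treated WT cells, a rise of at least 13.1-fold (adjusted p = 0.000135 among all probe sets). In S5 cells it went from 4.31 and 5.13 to 10.79 and 11.07, 74.2-fold (adjusted p = 6.43e-05), and in KO cells it lay between 2.48 and 2.55. The probe set 1438470_at read 7.53 and 7.44 in treated S5 cells, 2.88 and 4.21 in treated WT cells and at most 2.40 elsewhere. The probe set 1442586_at was above the low mode in treated S5 cells alone, at 5.71 and 5.51, a rise of at least 3.05-fold there (adjusted p = 1.37e-06), while the treated WT arrays read 2.15 and 2.20. Of the other two, 1441476_at reached 3.50 and 1446085_at 2.08 at most, both in the low mode. The S5 response exceeded that of WT by 3.94 on 1438470_at (3.38 with each value below 4 set to 4, adjusted p = 0.0104) and by 3.44 on 1442586_at (1.61 with low levels set to 4, adjusted p = 3.79e-06), whereas the 2 brightest probe sets did not pass (0.29 on 1418507_s_at and 1.09, or 2.50 with low levels set to 4, on 1449109_at, adjusted p = 0.668 and 0.276). Which exons or introns these probe sets read was not analysed here.

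Socs3, the inhibitor of receptors that share the gp130 chain, was read by 3 probe sets. On its brightest probe set it read 11.15 and 10.73 in untreated WT cells, 9.15 and 9.20 in KO cells and 8.77 and 9.41 in S5 cells. With the hormone the values were 12.08 and 12 in WT, 8.78 and 9.41 in KO and 11.88 and 11.36 in S5. The untreated KO and S5 arrays and the treated KO arrays overlapped at the bottom of the order, and the other groups did not overlap. Socs3 rose 5.78-fold in S5 cells (log2 change 2.53, SE 0.30, adjusted p = 0.00397), a call lost when the S5 arrays were fitted alone (adjusted p = 0.071). In WT cells the change of 1.10 (95% interval 0.40 to 1.80) did not pass (adjusted p = 0.0822), although both treated arrays lay above both untreated ones. It did pass with the mean of the 3 Socs3 probe sets (1.45, adjusted p = 0.0353), without genes that lie in the low mode in every group (adjusted p = 0.0456) and with low values set to 4 (adjusted p = 0.0445). In KO cells the change was -0.08 (95% interval -0.77 to 0.62).

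Growth hormone moved Socs3 more in S5 than in KO cells, by 2.61 (SE 0.42, adjusted p = 0.0377), but the call depended on single arrays while the difference stayed between 2.29 and 2.92 when any 1 array was left out. The call was lost when replicate 1 or 2 of WT (adjusted p = 0.0591 each), of treated WT (0.0803 each) or of KO (0.105 and 0.12) was left out. It was also lost without replicate 1 of treated KO (0.0754), of S5 (0.0913) or of treated S5 (0.0935), with array weights (0.115), with the replicate block (0.0713) and when the S5 and KO arrays were fitted alone (0.126). The S5 response did not pass against that of WT (1.43, 95% interval 0.45 to 2.41, adjusted p = 0.16). The second Socs3 probe set, 1456212_x_at, gave a like picture, with a rise of 6.37-fold in S5 cells (adjusted p = 0.00406 among all probe sets). The third, 1416576_at, was at or below 3.28 on all untreated and KO arrays, and read 4.33 and 5.38 in treated WT and 4.26 and 3.39 in treated S5 cells. Its responses did not pass among all probe sets in S5 (1.56, adjusted p = 0.0912) or WT cells (2.04, adjusted p = 0.0551). With each value below 4 set to 4 they were 0.13 and 0.85. Neither S5 minus KO (1.59, adjusted p = 0.476) nor S5 minus WT passed (-0.48, adjusted p = 0.944), the latter opposite in sign to the other Socs3 probe sets. The suffix x in the first 2 names marks probe sets in which some probes may also match other transcripts. The suffix s, on a probe set each of Socs2 and Socs4, marks another case, a set that may match more than 1 transcript.

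**Figure D3:**
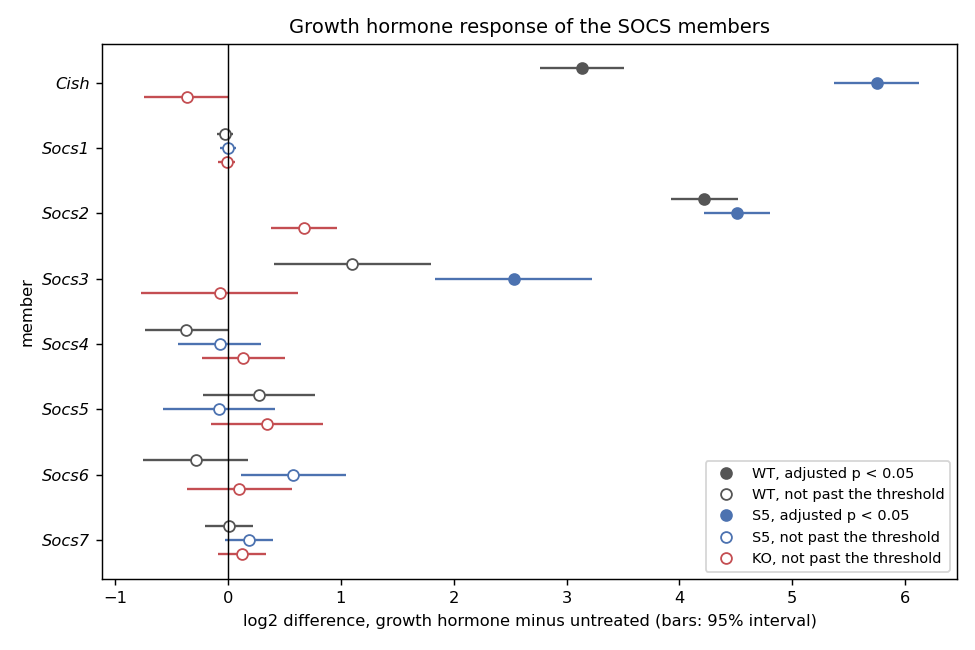
Log2 difference between growth hormone and untreated arrays for each of the 8 members (rows) in WT, S5 and KO cells (colours), with 95 percent intervals; filled points passed an adjusted p of 0.05. Filled points belong to Cish and Socs2 in WT and to Cish, Socs2 and Socs3 in S5 cells. Cish without its low level set to 4 is plotted at 5.75 in S5.

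The high resting level of Socs3 in WT cells stood beside transcripts of macrophages. Averaged over 14 markers of macrophages and blood cells, the log2 value was 9.08 and 10.54 on the untreated and 10.55 and 10.66 on the treated WT arrays, 3.94 to 4.28 on KO arrays and 3.13 to 3.39 on S5 arrays. Of the 14 markers, 12 lay above the low mode on both untreated WT arrays, 5 in KO and 3 in S5 cells, and the log2 of their summed level ran from 14.99 to 16.01 in WT, 9.59 to 9.63 in KO and 8.54 to 8.73 in S5, all untreated. The pan-leukocyte gene Ptprc and the macrophage gene Adgre1 were in the low mode in every KO and S5 group, and Itgam was so in all 6. Csf1r, Cd68 and Cd14 stayed above it on all KO and S5 arrays, and Cd53 and C1qb on all KO arrays. Untreated means of Csf1r were 13.38 in WT, 7.73 in KO and 6.58 in S5 cells, and those of Cd68 10.80, 7.96 and 7.73. The part of this signal in the level of Socs3 or of any other member in WT cells was not tested. In such bulk samples fewer cells of a type and less RNA per cell cannot be told apart. On the untreated WT arrays, a single pair, marker means of 9.08 and 10.54 stood with Socs3 at 11.15 and 10.73. Treated S5 cells, with the lowest marker means, had Socs3 at 11.88 and 11.36, values taken after the hormone and not at rest.

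**Figure D4:**
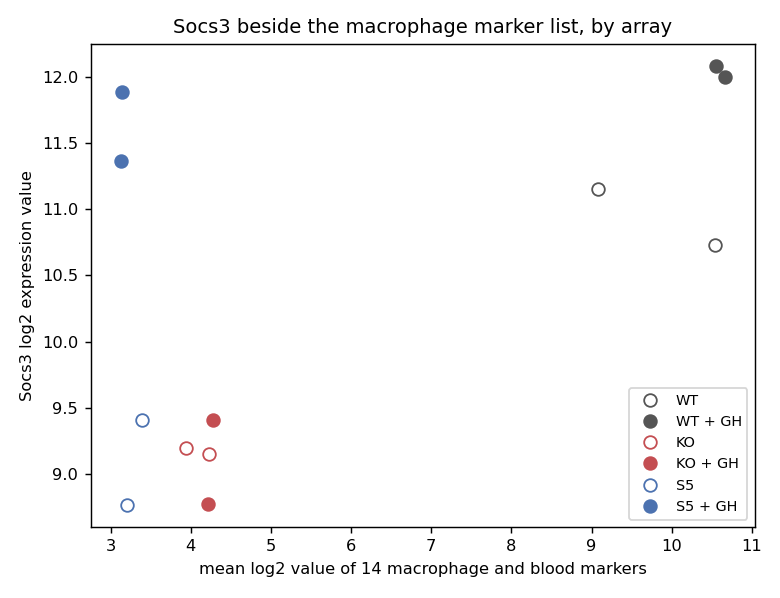
Socs3 log2 expression value (vertical axis) against the average log2 value of 14 markers of macrophages and blood cells (horizontal axis) on each of the 12 arrays, coloured by genotype and filled for growth hormone. WT arrays lie at marker means of 9.08 to 10.66, KO and S5 arrays at 3.13 to 4.28, and the treated S5 arrays combine a high Socs3 value with a low marker mean.

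Before any hormone, the genotypes already differed in SOCS transcripts. Untreated KO cells had less Socs2 and Socs3 than WT cells, 5.83-fold (log2 difference -2.54, SE 0.13, adjusted p = 1.22e-05) and 3.41-fold (-1.77, SE 0.30, adjusted p = 0.00403). Untreated S5 cells had 19.1-fold more Socs2 than KO cells (adjusted p = 4.22e-07) and 3.27-fold more than WT cells (adjusted p = 4.97e-05). Averaged over its 6 probe sets, Socs2 differed by -0.44 for KO minus WT, 1.08 for S5 minus KO and 0.63 for S5 minus WT, all past the threshold. Cish went the other way in S5 cells, at least 2.01-fold below WT (adjusted p = 0.000295) and at least 1.83-fold below KO (adjusted p = 0.000563), while KO and WT differed by -0.14 (95% interval -0.51 to 0.24). Socs3 in S5 cells was 3.62-fold below WT (adjusted p = 0.00221), and S5 minus KO was -0.08 (95% interval -0.78 to 0.61). Of the 8 members 2 passed for KO minus WT, 4 for S5 minus KO and 4 for S5 minus WT. Among all genes 27.1, 27.4 and 34.7 percent passed, so a call was common throughout, and the counts are not read as particular to the family. Markers of other cell types also differed between the untreated genotypes. The endothelial gene Tek had means of 6.77 in WT, 3.28 in KO and 9.35 in S5 cells, with the other 4 endothelial markers in the low mode in all 3. The epithelial keratin gene Krt18 had 6.45, 7.89 and 2.55, with the other 4 epithelial markers in the low mode. Their part in the SOCS differences was not tested. Genotype and cell preparation cannot be told apart.

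Socs1, a potent inhibitor of interferon signalling, was read by 1 probe set, which lay between 1.73 and 1.80 on all 12 arrays. That is in the low mode in every group, and no fold can be given. Whether the transcript was absent or the probe set does not read it was not tested.

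The remaining members are less studied, with Socs4 and Socs5 known for effects on the EGF receptor and Socs6 and Socs7 on insulin signalling. None of these 4 passed for a hormone response on its brightest probe set. Socs5 stood lower in S5 cells. Its 2 probe sets read 10.53 to 10.57 and 10.13 to 10.35 on untreated S5 arrays, against 11.71 to 11.92 and 11.44 to 11.46 in WT and 11.15 to 11.75 and 11.77 to 11.92 in KO. The S5 values did not overlap with those of the other genotypes on either probe set. Socs5 was 2.41-fold lower in S5 than in WT cells (adjusted p = 0.00267) and 1.87-fold lower than in KO cells (adjusted p = 0.0163). The latter call was lost when S5 and KO arrays were fitted alone (adjusted p = 0.0858) and without replicate 1 of KO (difference -0.60, adjusted p = 0.0656) or replicate 1 or 2 of S5 (0.0672 and 0.0776). On the second probe set the S5 value was 2.32-fold and 3.05-fold lower (adjusted p = 0.000212 and 5.59e-05 among all probe sets). With growth hormone Socs5 changed by 0.28 in WT, -0.08 in S5 and 0.34 in KO cells, with 95 percent intervals that all include 0.

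Socs6 showed how a member's call can depend on the probe set. On the brightest, 1435492_at, the S5 arrays read 10.82 and 10.84 without and 11.29 and 11.52 with growth hormone, a change of 0.58 (95% interval 0.11 to 1.04) that did not pass (adjusted p = 0.147). The other two did pass among all probe sets. On 1450129_a_at Socs6 rose 2.10-fold in S5 cells, from 8.17 and 7.81 to 9.14 and 8.99 (adjusted p = 0.00408), and on 1452764_at 2.08-fold, from 5.58 and 5.76 to 6.90 and 6.56 (adjusted p = 0.0147). With the mean of the 3 probe sets the change was 0.90 (adjusted p = 0.00107). In WT cells the changes on the 3 probe sets were -0.29, 0.14 and -0.48, and in KO cells 0.10, 0.62 and 0.24, and none passed. The S5 response exceeded that of WT by 0.94 on 1450129_a_at (adjusted p = 0.0452) and by 1.54 on 1452764_at (adjusted p = 0.0247). Against KO the S5 response did not pass on either, with 0.45 (adjusted p = 0.454) and 0.81 (adjusted p = 0.265). On 1450129_a_at untreated S5 cells also stood 1.59-fold below WT (adjusted p = 0.0055) and 1.53-fold below KO cells (adjusted p = 0.0106).

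Socs4 was read differently by its 4 probe sets. The brightest, 1455142_at, was 1.61-fold higher in untreated S5 than in KO cells (adjusted p = 0.0143), a call lost without replicate 1 of KO (adjusted p = 0.0814) or of S5 (0.0896). On it KO minus WT was -0.30 (adjusted p = 0.238). On 1421275_s_at, by contrast, KO cells stood 2.06-fold below WT (adjusted p = 0.00782), with 8.76 and 8.32 against 9.60 and 9.56, and on 1421274_at 2.44-fold (adjusted p = 0.0426). The fourth, 1421273_at, lay in the low mode throughout. Socs7 varied least among the members with a clear signal. Its brightest probe set lay between 12.29 and 12.66 on the 12 arrays, another between 5.76 and 6.86 and the other two below 2.

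**Figure D5:**
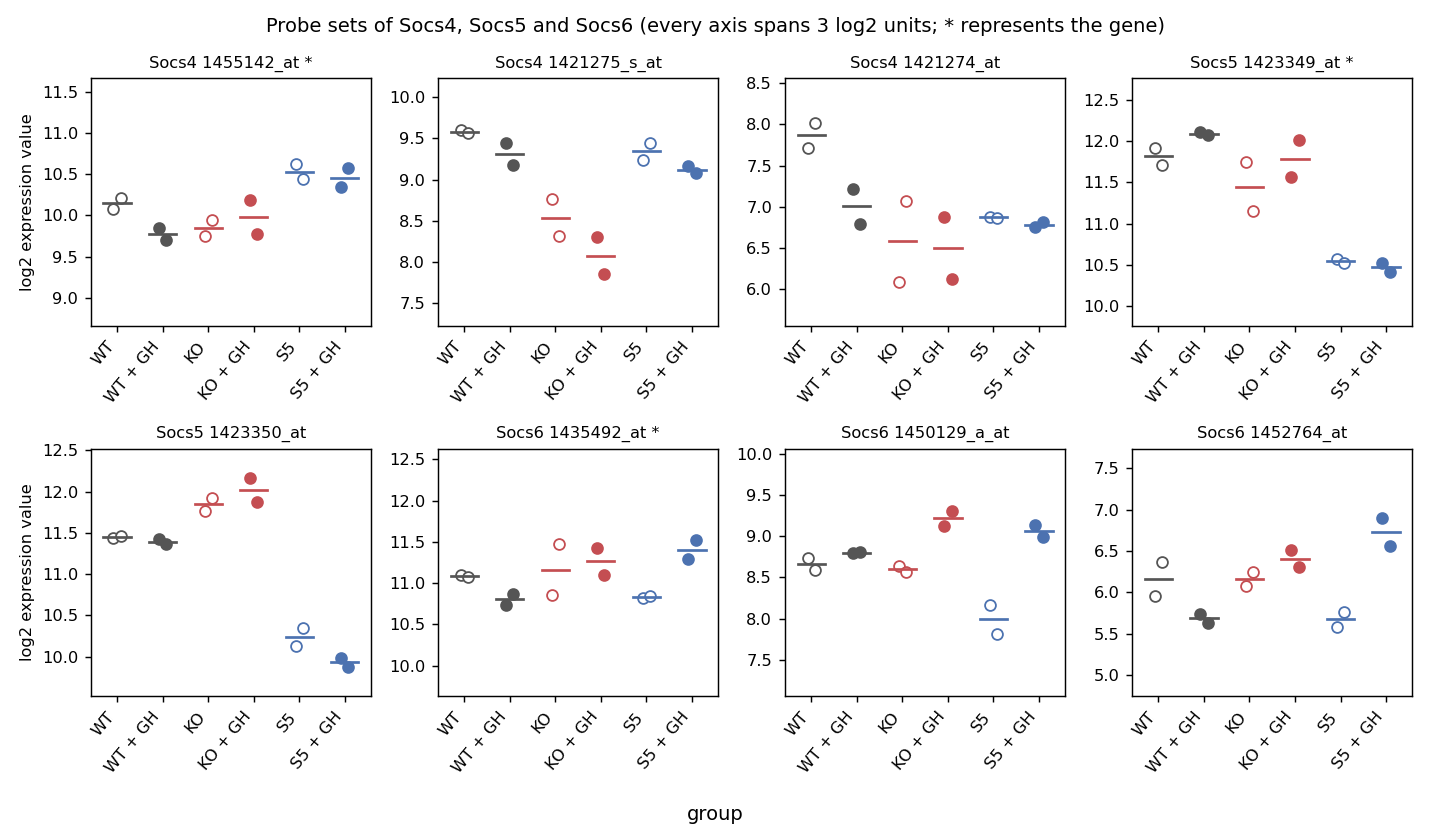
Log2 expression value in the 6 groups for the 8 probe sets of Socs4, Socs5 and Socs6 that lay above the low mode on all arrays; open points are untreated and filled points treated arrays, bars are means of 2 arrays, and every vertical axis spans 3 log2 units. Both Socs5 probe sets are lowest in S5 cells, and the Socs6 probe sets 1450129_a_at and 1452764_at step up with the hormone in S5 cells.

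With every probe set tested on its own, 3 of the 24 SOCS probe sets rose with growth hormone in WT cells and 10 in S5 cells, where 3.79 and 6.84 percent of all 34945 did. None passed in KO cells by limma's test (3 at an unadjusted p below 0.05), where 0.240 percent of all did. The 10 in S5 cells were the single Cish probe set, 5 of 6 for Socs2 (1441476_at among them, which stayed in the low mode), 2 of 3 for Socs3 and 2 of 3 for Socs6. For the difference between responses 3 passed for WT minus KO, 8 for S5 minus KO and 6 for S5 minus WT, all higher in the first, against 0.735, 1.02 and 2.28 percent of all probe sets. The 8 and the 6 include 1441476_at in the low mode. For untreated cells 7 passed for KO minus WT, 8 for S5 minus KO and 9 for S5 minus WT, against 21.3, 22.3 and 28.5 percent. Higher in the first were 1 of the 7, the Socs5 probe set 1423350_at, 4 of the 8 and 2 of the 9. The Socs4 probe set 1421273_at, in the low mode throughout, is among the 7 and the 9. Probe sets of 1 gene share its transcript and are not independent.

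Upstream of the SOCS genes, the list of receptor, JAK and STAT genes held 11 that were measured. Of these 4 rose in WT, 1 rose and 1 fell in S5 and none passed in KO cells by limma's test (2 at an unadjusted p below 0.05). Among all genes 6.00 percent passed in WT, 7.88 percent in S5 and 0.308 percent in KO cells, so few calls could be looked for in KO. In WT cells Stat5a rose by 0.77 (adjusted p = 0.00259), Stat5b by 0.34 (adjusted p = 0.0039), Jak2, the kinase of the growth hormone receptor, by 0.42 (adjusted p = 0.016) and the kinase Tyk2 by 1.25 (adjusted p = 0.0178). Jak2 changed by 0.27 in KO and 0.20 in S5 cells, and Tyk2 by 0.36 and 0.28. The WT response did not pass against that in KO for Jak2 (0.14, adjusted p = 0.881) or Tyk2 (0.89, adjusted p = 0.355). In S5 cells the interferon mediator Stat2 rose by 1.19 (adjusted p = 0.011), and Stat3, which gp130 cytokines activate, fell by 0.49 (adjusted p = 0.0152). Untreated S5 cells also had less Stat3 than KO (-0.66, adjusted p = 0.00081) and WT cells (-0.87, adjusted p = 0.000175).

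Ligands that signal through JAKs were also measured. Of 13 measured, 5 passed as higher and 1 as lower in WT cells, 1 as higher and 1 as lower in S5 cells, and none in KO cells by limma's test (2 at an unadjusted p below 0.05). The shares of all genes that passed were 6.00 percent in WT, 7.88 percent in S5 and 0.308 percent in KO cells. Both S5 calls involve the low mode and are not read as expression changes. Csf3 had a mean of 2.23 without and arrays at 2.99 and 3.01 with the hormone, all in it (adjusted p = 7.62e-05), and Il15 had 4.30 and 3.18 (adjusted p = 0.0189, and -0.30 with the low level set to 4). Csf2, the cytokine GM-CSF, went from 2.20 and 2.21 to 9.66 and 9.82 in WT cells (adjusted p = 7.19e-10) and lay in the low mode on all KO and S5 arrays. The gp130 ligand Il6, which acts upstream of Socs3, went from 2.65 and 2.68 to 7.29 and 8.10 there (floored log2 difference 3.70, adjusted p = 3.13e-05) and stayed between 2.53 and 2.64 on all KO and S5 arrays. Lif, another gp130 ligand, rose by 3.16 in WT cells (adjusted p = 0.000582), more than in KO cells by 2.84 (adjusted p = 0.0114) and more than in S5 cells (S5 minus WT -2.20, adjusted p = 0.0199). The part of the macrophage signal of the WT arrays in these values was not tested. Of 9 receptor chains 4 rose in WT cells, none passed in S5 cells (2 at an unadjusted p below 0.05) and 1 rose in KO cells. They stand against the same shares of all genes. The interferon receptor genes Ifnar1, Ifngr1 and Ifngr2 rose by 0.73, 0.86 and 1.09 in WT cells (adjusted p = 0.0122, 0.0276 and 0.0351). For these genes WT minus KO did not pass (adjusted p = 0.423, 0.154 and 0.217). The interferon receptor gene Ifnar2 did not pass in WT cells (0.09, adjusted p = 0.754), and Il10rb rose there by 0.45 (adjusted p = 0.0419). The oncostatin M receptor Osmr rose by 0.74 in KO cells (adjusted p = 0.02).

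Other dampers of the pathway included 1 that passed in all 3 genotypes. Of 12 measured, 3 rose and 2 fell in WT, 4 rose and 1 fell in S5 and 1 rose in KO cells. For all genes the shares called in either direction were 6.00 percent in WT, 7.88 percent in S5 and 0.308 percent in KO cells. Ptpn1, the tyrosine phosphatase PTP1B that acts on JAK2, rose by 0.70 in WT (adjusted p = 0.0115), 1.10 in S5 (adjusted p = 0.00184) and 0.92 in KO cells (adjusted p = 0.0225). Its S5 response differed from that in KO by 0.18 (SE 0.15, adjusted p = 0.985) and its WT response by -0.22 (SE 0.15, adjusted p = 0.876). The related phosphatase Ptpn2 rose by 0.56 in WT and 0.43 in S5 cells (adjusted p = 0.00393 and 0.0101). Its KO change of 0.33 did not pass (adjusted p = 0.122), nor did WT minus KO (0.23, adjusted p = 0.48) or S5 minus KO (0.11, SE 0.09). The adaptor Sh2b3 rose by 0.70 in WT cells (adjusted p = 0.00703), and WT minus KO did not pass (0.45, adjusted p = 0.262). Pias1, a SUMO ligase that inhibits STATs, fell by 0.59 in S5 cells (adjusted p = 0.00343) and by 0.31 in WT cells (adjusted p = 0.0425). Pias4 went the other way in S5 cells, with a rise of 0.72 (adjusted p = 0.0488), and Pias2 and Pias3 did not pass there. In WT cells Pias3 fell by 0.35 (adjusted p = 0.036), and Pias2 and Pias4 did not pass. Cblb rose by 0.86 in S5 cells (adjusted p = 0.0156). Among the 6 genes for the SOCS box ubiquitin ligase, elongin C (Eloc) rose by 0.22 in WT cells (adjusted p = 0.017), and none of the 6 passed in S5 or KO cells (1 and 0 at an unadjusted p below 0.05). For Eloc, WT minus KO did not pass (0.16, adjusted p = 0.342).

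Patterns over the 12 arrays were compared by Pearson's r of the log2 values, as a description, since the arrays share groups. The representative probe sets of Cish and Socs2 had r = 0.81, those of Cish and Socs3 0.86 and those of Socs2 and Socs3 0.77. Socs4 and Socs5 had r = -0.86. Among 5443 other named genes whose group means spanned at least 1 log2 unit, the 5 most like Cish were Steap4, a metalloreductase (r = 0.95), Frmd6 (0.92), the transporter Slco5a1 (0.91), Cyp26b1, which degrades retinoic acid (0.90), and Amigo2 (0.90). Steap4 had log2 responses of 2.70 in WT, 2.68 in S5 and 0.25 in KO cells, and Cyp26b1 of 4.47, 3.33 and -0.31, both from untreated levels in the low mode. Most like Socs2 were the proteoglycan Sdc4 (r = 0.96), Alkbh1 (0.96), the lipase Mgll (0.96), Plekhg2 (0.95) and Slco5a1 (0.95). Slco5a1 is thus in both lists, with responses of 2.27, 3.02 and 0.02, also from the low mode. Most like Socs3 were the lipid transporter Mfsd2a (r = 0.98), Spsb1, itself a SOCS box protein (0.97), the efflux pump Abcb1a (0.94), the kinase Camkk2 (0.94) and Dph2 (0.93). Parts of these patterns lie in the low mode. Mfsd2a had means of 2.07 to 2.22 in both KO groups and untreated S5 cells, Abcb1a 2.84 and 3.10 in the KO groups. Dph2 was above the bound in treated WT cells alone (4.27). Most like Socs5 were Kdelr3, Srxn1, Tbc1d1, Sfxn1 and Eif4g3, with r from 0.97 to 0.98. Their means in untreated S5 cells lay below those in untreated WT cells, for Kdelr3 at 10.58 against 11.84.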

How the data were processed

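The authors deposited 1 value per probe set and array, read here as log2 expression values because of their range. Per the submitters' processing notes the tools were GCOS and RMA, with no settings given. No label states the scale. Probe sets were named through the platform annotation and RefSeq symbols. Left out of the 45101 were 64 controls, 932 named with more than 1 gene and 9160 without a name. The brightest probe set stood for a gene. Limma 3.58.1 (R 4.3.3) fitted a mean per group (6 residual and 1.2 prior degrees of freedom), with Benjamini-Hochberg adjustment over 18194 genes, and 9 comparisons were made. Alternatives were quantile normalization, median centring, averaged probe sets, single probe sets, a filter on and a floor for low values, array weights, a trended prior, fits of single comparisons, a replicate block and leaving out each array. The code was tested on simulated data. The members, the gene lists and the bound of 4 were chosen with earlier results of these data known. Named were all members, Stat5a, Stat5b and Ghr, up to 4 genes per list and comparison with the smallest adjusted p, and the 5 genes most like each member that varies, without clone or locus names. Thy1, Lum, Dcn, Pdgfra, Col1a1, Col1a2, Col3a1, Vim, Fn1, Ptprc, Adgre1, Itgam, Csf1r, Cd68, Cd14, Cd53, C1qb, Ifnar2, Tek and Krt18 were named after their values were seen. Some genes of the lists were not analysed here.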

Additional observations from a re-analysis of the deposited data

Results flagged for a closer look

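A test of the difference between 2 genotypes' hormone responses passed for 6 combinations of member and genotypes, each with 2 arrays per group. Cish responded more in WT than in KO cells by 3.51, more in S5 than in KO cells by 6.11 and more in S5 than in WT cells by 2.61 on the log2 scale. Socs2 responded more than in KO cells by 3.55 in WT and by 3.84 in S5 cells. Socs3 responded more in S5 than in KO cells by 2.61, the value of the 6 whose call was lost when single arrays were left out.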

How the results depend on the processing

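Of 1574 member values under the alternatives, 1534 stayed on the same side of the threshold, 19 lost and 20 gained a call, and 1 reversed. That one was Socs4 in untreated S5 minus WT, -0.47 (adjusted p = 0.0202) when its probe sets were averaged. The counts of members called for S5 minus WT responses went from 1 to 3 when probe sets were averaged, through Socs2 (1.61) and Socs6 (1.11), and to 2 when the 4 groups concerned were fitted alone. Leaving out 1 array gave 0 to 1 members for the KO response, 3 to 4 for S5, 2 for WT, 2 for WT minus KO, 2 to 3 for S5 minus KO, 1 for S5 minus WT, and for untreated cells 2 for KO minus WT, 2 to 4 for S5 minus KO and 4 to 5 for S5 minus WT. The calls of Cish and Socs2 held under all 22 alternatives in each comparison they passed, but averaging probe sets moved Socs2 from 4.22 to 1.75 in WT, from 3.55 to 1.65 for WT minus KO and, untreated, from -2.54 to -0.44 for KO minus WT, from 4.26 to 1.08 for S5 minus KO and from 1.71 to 0.63 for S5 minus WT. Replicate numbers gave no common pairing of the arrays (r of deviations from -0.36 to 0.20, above 0.1 in 1 of 15 pairs of groups). The lowest r, -0.36, was that between untreated and treated KO arrays. Whether those were paired under other numbers cannot be told from these values. With the replicate block the count for S5 minus KO responses was 2, without Socs3, and no other member changed its call. With the KO numbers crossed, an alternative added after seeing the data, the KO count was 0. The number of arrays and the low mode, which compresses differences, limit all values.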
